A study of Mus musculus with 6 samples.

Results

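Voltage-gated and potassium ion channel genes were compared between adrenal glands of mice lacking PACAP (genotype PACAP -/-, KO) and of PACAP +/+ mice (WT), both F2 animals of the 129XC57BL6 background. PACAP is the neuropeptide encoded by Adcyap1, and it acts as a transmitter of the splanchnic nerve on the chromaffin cells of the adrenal medulla. Total RNA of whole adrenal gland was hybridised to 6 spotted cDNA arrays, each with 1 KO RNA labelled with Cy3 and 1 WT RNA labelled with Cy5. The series addresses which adrenal genes depend on PACAP. The labels give no age or sex, and they leave unsaid if the 6 arrays held RNA of separate mice. P-values therefore reflect variation among arrays, part of which may be technical. No array had the dyes exchanged, and genotype and dye cannot be told apart for any single clone.

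Channel genes were taken as those whose current mouse symbol starts with Kcn, Cacna, Cacnb or Cacng, or with Scn and a digit. The arrays held 143 cDNA clones of 80 such genes, among 35970 clones of which 22368 carried 1 named gene (11837 genes). Potassium channel genes made up 55 of the 80 genes (90 clones), calcium channel genes 18 (35 clones) and sodium channel genes 7 (18 clones). Of the 143 clones, 105 clones of 67 genes had a ratio of acceptable quality (a deposited quality score above 0.3) on at least 4 arrays and were tested, 38 were not tested, and 12 of those 38 passed the quality filter on no array. The 13 genes without a tested clone were Cacnb1, Kcna2, Kcna5, Kcnd2, Kcne3, Kcng2, Kcnj13, Kcnk10, Kcnn3, Scn1a, Scn2a, Scn3b and Scn9a. One clone that met the rule by its letters, Kcnd3os, represents an antisense transcript and not a channel subunit.

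Ion channels set how readily a cell fires and how much calcium enters when it does. Potassium channels hold the membrane potential low or bring it back after a spike, sodium channels carry the fast upstroke of the spike, and voltage-gated calcium channels admit the calcium that starts hormone release. In the adrenal medulla they shape catecholamine secretion from chromaffin cells. In the adrenal cortex, background potassium channels and calcium channels control aldosterone output of the zona glomerulosa. In RNA of a whole gland, fewer cells of a type and less RNA per cell cannot be told apart.

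The quality filter kept between 26027 and 31960 of the 37632 spots of an array. The median KO signal was 5.15 to 6.79 times its local background, and the median WT signal 1.11 to 4.57 times, lowest on arrays 4 and 2. Ratios were also wider on some arrays: the SD of the log2 ratio over all clones was 0.50, 0.51 and 0.38 on arrays 2, 4 and 6, and 0.23, 0.31 and 0.24 on arrays 1, 3 and 5. Adcyap1, the gene deleted in the KO, was represented by 1 clone that passed the quality filter on 2 arrays, and therefore gave no check of the genotype labels. Markers of the labelled tissue were measured: 10 of 12 clones of adrenal cortex markers and 12 of 12 clones of chromaffin cell markers exceeded their local background in both dyes on at least 4 arrays. Of the channel clones, 62.2% met that condition, against 70.9% of all clones.

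Of the 105 channel clones tested, 11 clones of 10 genes were higher in KO glands, 4 clones of 4 genes were lower and 90 did not pass the threshold. The test was limma's moderated test of the mean log2 ratio of KO over WT against 0, after print-tip loess (which evens out the ratios within each of the 48 print blocks of the array), with Benjamini-Hochberg adjusted p under 0.05 over all 28666 clones tested. The share of channel clones called, 14.3%, stood beside 11.2% of all clones. The share called higher was 10.5%, beside 6.67% of all clones, and 4.56% of all clones were called lower. At an unadjusted p under 0.05, 33.3% of channel clones passed and 32.7% of all clones did. A ratio of 1 sign on every array measured was found for 28 of the 105 channel clones (26.7%), beside 22.2% of all clones. The median log2 ratio of the channel clones was -0.02, and that of all clones was -0.00 (-0.0016).

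The 3 ion types differed in the share of clones called after print-tip loess. It was 18.5% for potassium, 7.14% for calcium and 8.33% for sodium channels, beside 11.2% of all clones. Potassium channel clones gave 10 higher and 2 lower among 65, with a median log2 ratio of 0.00 (0.0014). Calcium channel clones gave 1 higher (Cacna1a) and 1 lower (Cacna1d) among 28, with a median of -0.03. Sodium channel clones gave none higher and 1 lower (Scn4b) among 12, with a median of -0.07. The sodium clones tested represent only 3 genes, against 47 for potassium and 17 for calcium. The middle of each ion type thus lay close to that of all clones, and the higher calls sat in the upper tail of the potassium channels. With one loess curve for the whole array (global loess), 11 potassium clones were higher and 6 lower. Calcium clones then gave 2 higher and 6 lower, and sodium clones 4 lower. The larger share of potassium calls was not seen there, where 30.4% of all clones were called. The difference between ion types was not tested.

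Among the classes of channel, the two-pore potassium channels had the most called clones. They gave 5 clones higher of 9 tested and none lower, with a median log2 ratio of 0.48. That is 55.6% higher, beside 6.67% of all clones called higher and 11.2% called in either direction. Among these 5 clones, Kcnk3 clone 2 and Kcnk12 have titles in the scanner files that are not a channel's. Channels of the Slo and SK type, opened by calcium or sodium inside the cell or by pH, gave 2 higher of 8 (median 0.08). Inward rectifiers gave 1 higher of 11 (median -0.04), voltage-gated subunits 1 higher and 2 lower of 28 (median -0.04), and auxiliary subunits 1 higher of 8 (median -0.07). Among calcium channels, the pore-forming alpha-1 subunits gave both calls among 12 clones (median -0.11), and none of the 16 auxiliary clones passed (median -0.03). None of the 6 sodium alpha clones, all of 1 gene (Scn8a), passed. Among the 6 beta clones, of 2 genes, 1 was lower. The classes hold few clones each, and some clones represent the same gene.

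**Figure D1:**
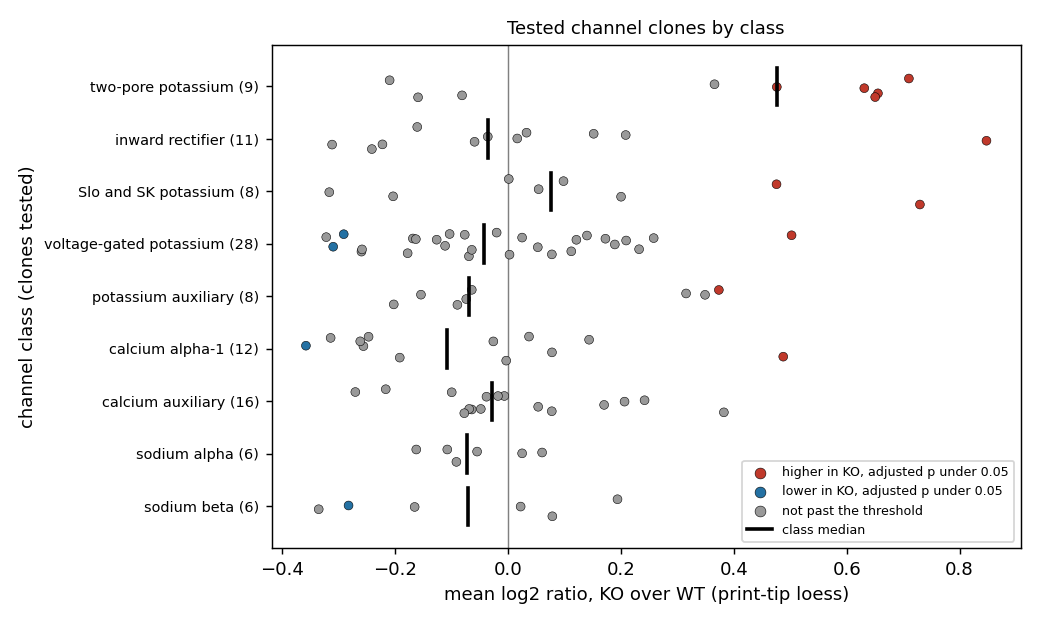
Mean log2 ratio of KO over WT after print-tip loess for the tested channel clones, by class, with the number of clones tested in brackets; each point is 1 clone and the black bar is the class median (Kcnd3os, an antisense transcript, is not drawn). The two-pore class has its median at 0.48 with 5 clones called higher, while the medians of the other classes lie between -0.11 and 0.08.

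Two-pore potassium channels pass a leak current that is open at rest and brings the membrane potential close to that of potassium. Kcnk3 encodes the acid-sensitive leak channel TASK-1, which in mice helps to set the membrane potential of zona glomerulosa cells. Kcnk2 and Kcnk4 encode the stretch- and lipid-sensitive channels TREK-1 and TRAAK. Kcnk12 encodes THIK-2, a member of the halothane-inhibited branch. These are the 4 genes of the class with a clone called higher in KO glands.

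Kcnk3 was measured by 2 tested clones. In the clone titled Kcnk3 in the scanner files (clone 3), the normalised signal on arrays 1 to 6 was 2126, 2010, 1923, 870, 1268 and 916 in KO glands, against 1566, 1002, 1270, 538, 1089 and 515 in WT glands. KO exceeded WT on every array, by log2 ratios of 0.44, 1.00, 0.60, 0.69, 0.22 and 0.83, although the ranges of the 2 genotypes over arrays overlapped. The mean log2 ratio was 0.63 ± 0.10 (SE, n = 6; 1.55-fold, limma adjusted p = 0.0248). The other tested clone (clone 2) gave 0.13, 1.26, 0.38, 0.56, 0.48 and 1.09, again above 0 on every array, with a mean of 0.65 ± 0.14 (adjusted p = 0.0310). Its title in the scanner files is that of a glucosaminyltransferase-like sequence, so that only the probe annotation names it Kcnk3. Both clones were printed in print block 8. A further Kcnk3 clone passed the quality filter on 3 arrays, at -0.35, -0.15 and 0.44 on arrays 2, 5 and 6, and was not tested.

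Kcnk2 gave log2 ratios of 0.30, 1.30, 0.48, 1.38, 0.13 and 0.68 in clone 1, which is titled as the channel, and all were above 0. Their mean was 0.71 ± 0.16 (SE, n = 6; 1.64-fold, adjusted p = 0.0332). Arrays 2 and 4 stood well above the rest, and without both of them the mean was 0.40 (adjusted p = 0.128). Clone 2 of Kcnk2 gave 0.20, 0.40, 0.47, 0.88, 0.30 and -0.05. It pointed the same way on 5 of 6 arrays and did not pass (0.37 ± 0.11, adjusted p = 0.0590).

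Kcnk12, at log2 ratios of 0.45, 1.11, 0.56, 1.08, 0.11 and 0.63, averaged 0.66 ± 0.13 (1.58-fold, adjusted p = 0.0279). Its KO signal exceeded the local background on 6 arrays and its WT signal on 3, so that the WT level is the less certain of the pair. The Kcnk12 clone, too, has a title in the scanner files that is not a channel's. Kcnk4 gave 0.43, 0.63, 0.44, 1.06, 0.33 and -0.03, with a mean of 0.48 ± 0.12 (1.39-fold, adjusted p = 0.0402). Kcnk4 was thus higher in KO on 5 of 6 arrays and level on the remaining one.

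The other 3 two-pore genes tested had negative means and did not pass. Kcnk1, a weakly rectifying leak channel, was at -0.16 ± 0.08 (adjusted p = 0.169) with negative values on all 6 arrays. Kcnk5, an alkaline-activated channel, was at -0.08 ± 0.13 (n = 5, adjusted p = 0.695), and Kcnk6 at -0.21 ± 0.14 (adjusted p = 0.303). Kcnk6 ran between -0.76 on array 6 and 0.25 on array 5, a spread wider than its mean. The means of the class thus lay on both sides of 0.

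**Figure D2:**
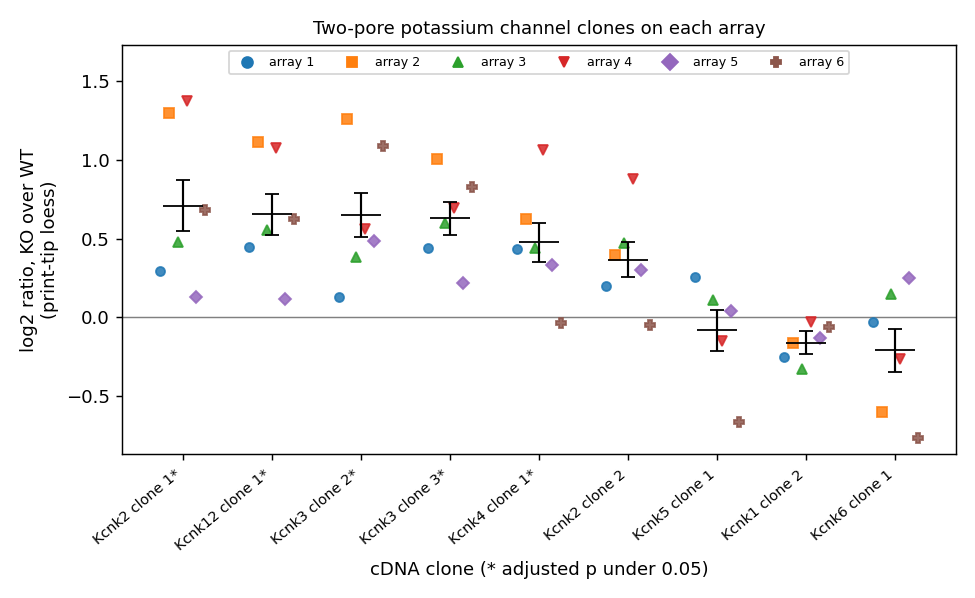
Log2 ratio of KO over WT on each of the 6 arrays (coloured symbols) for the 9 tested two-pore potassium channel clones, with the mean and its SE in black; an asterisk marks adjusted p under 0.05. The 5 called clones lie above 0 on every array except Kcnk4 on array 6 (-0.03), and arrays 2 and 4 are often the highest.

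The promoters of the two-pore genes with a clone called higher are shown for 3 of the 4. Each is given as the 250 bases before the transcription start in RefSeq (build GRCm38.p6). For Kcnk2, with 4 listed starts, the window is that of the most upstream one. All 3 genes lie on the minus strand and are written 5′ to 3′ in the direction of transcription. Capitals mark the GC box GGGCGG, the letters bound by Sp-type transcription factors, on either strand.
Kcnk4, chr19:6934516-6934765: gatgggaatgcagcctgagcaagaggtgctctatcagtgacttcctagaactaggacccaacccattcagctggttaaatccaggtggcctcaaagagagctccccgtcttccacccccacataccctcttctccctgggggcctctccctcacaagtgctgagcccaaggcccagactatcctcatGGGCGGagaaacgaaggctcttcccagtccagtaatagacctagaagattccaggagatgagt
Kcnk12, chr17:87797995-87798244: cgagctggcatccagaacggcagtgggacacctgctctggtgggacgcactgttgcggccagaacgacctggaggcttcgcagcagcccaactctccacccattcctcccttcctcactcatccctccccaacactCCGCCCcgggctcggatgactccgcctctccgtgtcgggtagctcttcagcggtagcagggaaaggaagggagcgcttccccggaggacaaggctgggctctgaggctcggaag
Kcnk2, chr1:189402274-189402523: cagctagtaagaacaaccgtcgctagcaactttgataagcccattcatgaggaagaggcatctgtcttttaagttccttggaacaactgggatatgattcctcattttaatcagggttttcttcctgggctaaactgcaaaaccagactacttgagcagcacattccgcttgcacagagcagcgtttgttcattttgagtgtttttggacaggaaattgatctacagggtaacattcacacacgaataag
Kcnk4 and Kcnk12 hold 1 GC box each, and the printed Kcnk2 window holds none, while 1 of its 4 windows does.

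Motifs were searched in these windows on both strands, 5 in all, chosen after the expression values had been seen. Promoter windows were found for 58 of the 80 channel genes and for 6 of the 10 genes with a clone called higher (Kcnc4, Kcnip3, Kcnk12, Kcnk2, Kcnk4 and Kcnma1). The GC box GGGCGG was present in 6 of those 6, in 2 of the 3 genes with a window and a clone called lower, in 34 of the 58 channel genes (58.6%) and in 35.4% of 27025 genes. The cAMP response element TGACGTCA occurred in 0 of the 58 channel genes and in 1.77% of all genes, and its shorter core TGACG, which the full element contains, in 11 of 58 (19.0%) and in 19.8% of all genes. The element CAAGGTCA of the adrenal factor NR5A1 occurred in 0 of 58 channel genes and in 1.51% of all genes, and its shorter form AGGTCA, contained in it, in 5 of 58 (8.62%) and in 15.8%. A gene with several starts had more than one chance to hold a motif. A match is a run of letters in a window and shows no binding.

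Among channels opened by calcium or other ions inside the cell, Kcnma1 and Kcnu1 were called. Kcnma1 encodes the BK channel, which repolarises the chromaffin cell spike when calcium enters. Its tested clone, whose title names no gene, gave log2 ratios of 0.31, 1.11, 0.41, 1.32, 0.33 and 0.90, all above 0. The mean was 0.73 ± 0.14 (1.66-fold, adjusted p = 0.0271). Another Kcnma1 clone, titled as a channel, passed the quality filter on 3 arrays and was not tested. It was at 0.01, 0.20 and -0.14 on arrays 3, 5 and 6. Kcnmb1, an auxiliary subunit gene, was at -0.15 ± 0.10 (adjusted p = 0.325). Kcnu1 encodes the Slo3 channel known from sperm. Kcnu1 clone 2 gave 0.15, 0.67, 0.47, 0.80, 0.04 and 0.72 (mean 0.48 ± 0.11, adjusted p = 0.0352), whereas clone 1 gave -0.02, -0.54, -0.49, -0.42 and -0.11 on the 5 arrays measured (mean -0.32 ± 0.11, adjusted p = 0.0764). The 2 Kcnu1 clones thus pointed in opposite directions. The small-conductance channel genes did not pass: Kcnn1 was at 0.00 (0.0014), and the 2 clones of Kcnn2 were at 0.20 ± 0.07 (adjusted p = 0.0889) and -0.20 ± 0.09 (adjusted p = 0.146). Kcnt1, a sodium-activated channel, was at 0.10 and 0.05 in its 2 clones.

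Kcnj14, an inward rectifier of the strongly rectifying Kir2 subfamily, had the largest ratio and the smallest p among all channel clones. Its normalised signal was 4706, 1909, 3607, 1934, 3436 and 2177 in KO glands, against 2738, 915, 2222, 837, 2284 and 1298 in WT glands. KO lay above WT on every array, by log2 ratios of 0.78, 1.06, 0.70, 1.21, 0.59 and 0.75, and the ranges of the genotypes overlapped. The mean was 0.85 ± 0.10 (1.80-fold, adjusted p = 0.0193), and with one loess curve for the whole array (global loess) it was 0.25 ± 0.13 (adjusted p = 0.170). The other 10 inward rectifier clones did not pass. The smallest p among them belonged to the glial channel gene Kcnj10, at -0.24 ± 0.08 (adjusted p = 0.0746), which was negative on 6 of 6 arrays and positive with global loess (0.26). Averaged over its 2 spots of any quality, the Kcnj10 signal exceeded the local background on 1 array in KO and on 1 in WT. Kcnj6 and Kcnj3, which encode channels opened by G proteins, were at 0.21 and 0.15 (the 2 Kcnj6 clones) and at -0.04.

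Of the voltage-gated potassium channel subunits, Kcnc4 was higher in KO glands. It encodes a fast inactivating channel of the Kv3 subfamily. Its clone 2 gave 0.15, 0.59, 0.31, 0.88, 0.11 and 0.98 (mean 0.50 ± 0.13, adjusted p = 0.0380), and its clone 3 was at 0.12 ± 0.09 (adjusted p = 0.387). Means of the 4 Kcnc1 clones, from a related gene, lay between 0.03 and 0.26, and none passed. The auxiliary subunit gene Kcnip3 encodes calsenilin, a calcium-binding protein that attaches to Kv4 channels. Kcnip3 gave 0.48, 0.29, 0.34, 0.22 and 0.54 on the 5 arrays measured (mean 0.37 ± 0.09, 1.30-fold, adjusted p = 0.0360). Its values were close together compared with those of the other clones called higher, and its WT signal exceeded the local background on 3 arrays. Kcne2, another auxiliary subunit gene, was at 0.32 ± 0.11 (adjusted p = 0.0874) and positive on 5 of 6 arrays.

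Kcnq1 and Kcns3 were lower in KO glands. Kcnq1 encodes the slow delayed rectifier known from heart and inner ear, and gave -0.30, -0.47, -0.29, -0.33, -0.02 and -0.44 (mean -0.31 ± 0.08, 0.807-fold, adjusted p = 0.0415). With global loess the same clone lay at 0.26 ± 0.14 (adjusted p = 0.172), so that its direction depended on the normalization. Kcns3 encodes an electrically silent subunit that modifies Kv2 channels. Kcns3 clone 2 gave -0.18, -0.12, -0.28, -0.46, -0.22 and -0.48 (mean -0.29 ± 0.08, adjusted p = 0.0457), and clone 1 was at -0.26 ± 0.10 (adjusted p = 0.0978). Both clones of Kcns3 pointed the same way. Kcnh1, an ether-a-go-go channel gene, was at -0.32 ± 0.10 (adjusted p = 0.0654) and -0.10 ± 0.10 in its 2 clones. Kcnq3, a subunit of the M-current, was at 0.19 ± 0.09 (adjusted p = 0.154).

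Cacna1d encodes the L-type pore CaV1.3, which in mouse chromaffin cells opens at low voltage and helps to drive spontaneous firing. Its clone 2 had normalised signals of 210, 150, 173, 123 and 261 in KO glands on arrays 1, 2, 3, 4 and 6, against 222, 199, 216, 155 and 412 in WT glands. KO was the lower one on each of the 5 arrays measured, with log2 ratios of -0.08, -0.41, -0.32, -0.33 and -0.66 and a mean of -0.36 ± 0.10 (0.780-fold, adjusted p = 0.0499). Cacna1d clone 1 was also negative on every array, at -0.12, -0.28, -0.28, -0.41, -0.13 and -0.26, and did not pass (-0.25 ± 0.07, adjusted p = 0.0566). With global loess both clones were called lower, at -0.75 ± 0.16 (adjusted p = 0.0048) and -0.64 ± 0.14 (adjusted p = 0.0056). The clones lie in different print blocks, 10 and 3, and the scanner files give neither a gene title. Other channel clones of these blocks also lay lower with global loess than after print-tip loess. In block 3, Kcnh1 clone 2 was at -0.54 against -0.10, and Cacng5 clone 1 at -0.46 against -0.08. In block 10, Kcna6 clone 2 was at -0.38 against -0.13, and Kcnd1 at -0.44 against -0.16. The part of the print block in the Cacna1d values with global loess was not tested.

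The 3 Cacna1a clones, which represent the P/Q-type pore gene, disagreed. Clone 2 was higher in KO, at 0.06, 0.68, 0.29, 0.89, 0.26 and 0.74 (mean 0.49 ± 0.12, adjusted p = 0.0348). Clone 1 was negative on every array (mean -0.31 ± 0.10, adjusted p = 0.0622), and clone 4 did not pass (0.14 ± 0.13, n = 4). No direction can be given for the gene. Cacna1b, the N-type pore gene, was at -0.19 ± 0.10 (n = 4, adjusted p = 0.237), and -0.78 ± 0.19 (adjusted p = 0.0099) with global loess. Cacna1h, a T-type pore gene, was at 0.04 in one clone and -0.03 in the other. The alpha-1 gene Cacna1e was at -0.26 ± 0.15 (n = 5, adjusted p = 0.269). Among auxiliary subunits the smallest p values belonged to Cacng2, which encodes stargazin (clone 4, 0.24 ± 0.08, adjusted p = 0.0763), and to the beta subunit gene Cacnb4 (-0.22 ± 0.08, adjusted p = 0.0846). Cacna2d1, the alpha-2-delta subunit gene that binds gabapentin, was at 0.38 ± 0.14 (adjusted p = 0.0946). The 4 Cacnb2 clones lay between -0.10 and 0.21.

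**Figure D3:**
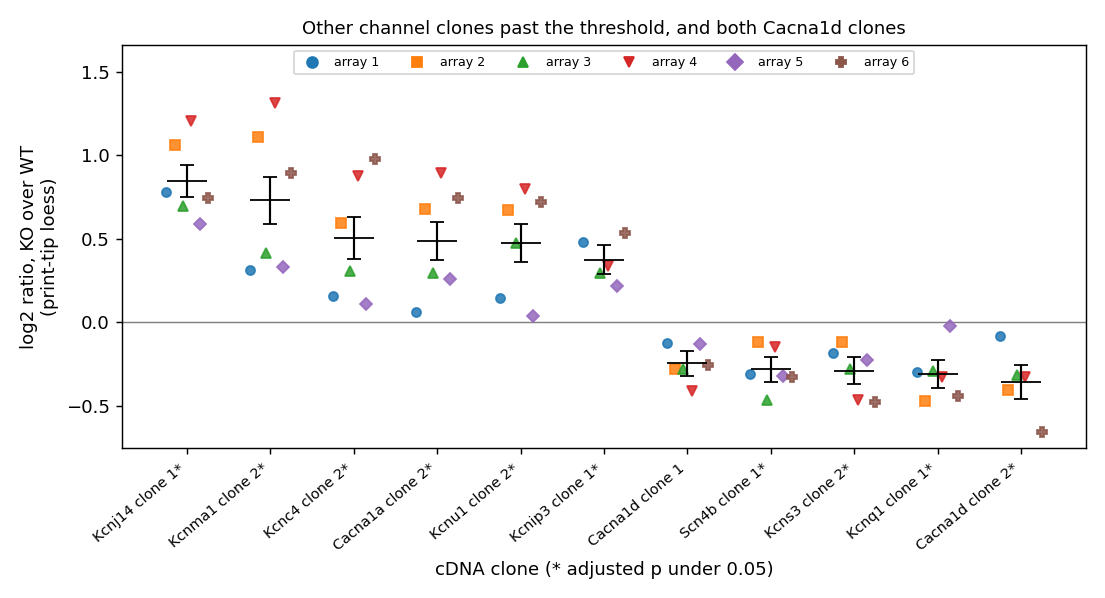
Log2 ratio of KO over WT on each array (coloured symbols) for the 10 channel clones outside the two-pore class that passed the threshold (asterisk) and for Cacna1d clone 1, with the mean and its SE in black. The 6 clones on the left are above 0 and the 5 on the right below 0 on every array measured, and all the higher clones but Kcnip3 spread more between arrays than the lower ones do.

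Of the sodium channel genes, Scn4b was lower in KO glands. It encodes the beta-4 subunit, which in neurons takes part in resurgent sodium current. Scn4b clone 1 gave -0.31, -0.12, -0.46, -0.15, -0.32 and -0.33 (mean -0.28 ± 0.08, 0.822-fold, adjusted p = 0.0446). Clone 3 was negative on the 5 arrays measured (-0.34 ± 0.11, adjusted p = 0.0780) and clone 2 positive on 5 of 6 (0.19 ± 0.12, adjusted p = 0.271), so that the clones of this gene did not all point one way. Scn8a, the alpha subunit NaV1.6, was measured by 6 tested clones with means between -0.16 and 0.06, and none passed. With global loess 3 of those 6 clones were called lower, at -0.64, -0.63 and -0.47, while the others were positive, at 0.04, 0.09 and 0.37. The 3 Scn2b clones lay between -0.17 and 0.08.

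The clones of a gene were compared with each other. Of the 24 channel genes with at least 2 tested clones, 11 (45.8%) had clones of 1 sign, beside 47.5% of all named genes with several clones. Of 60 pairs of clones for the same channel gene, 32 (53.3%) agreed in sign, beside 59.2% of such pairs over all genes. Clones of the same gene therefore shared a direction about as often as not. Kcnk3, Kcnk2, Kcnc4, Kcns3 and Cacna1d were the genes with a called clone whose tested clones all had the same sign. Kcnu1, Cacna1a and Scn4b were those whose clones opposed each other. After print-tip loess, Kcnk3 was the only channel gene with 2 clones called. Of the 143 channel clones, 58 have a channel's title in the scanner files, 75 name no gene and 10 name something else. Of the 15 called clones, 9, 4 and 2 fell in these groups.

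**Figure D4:**
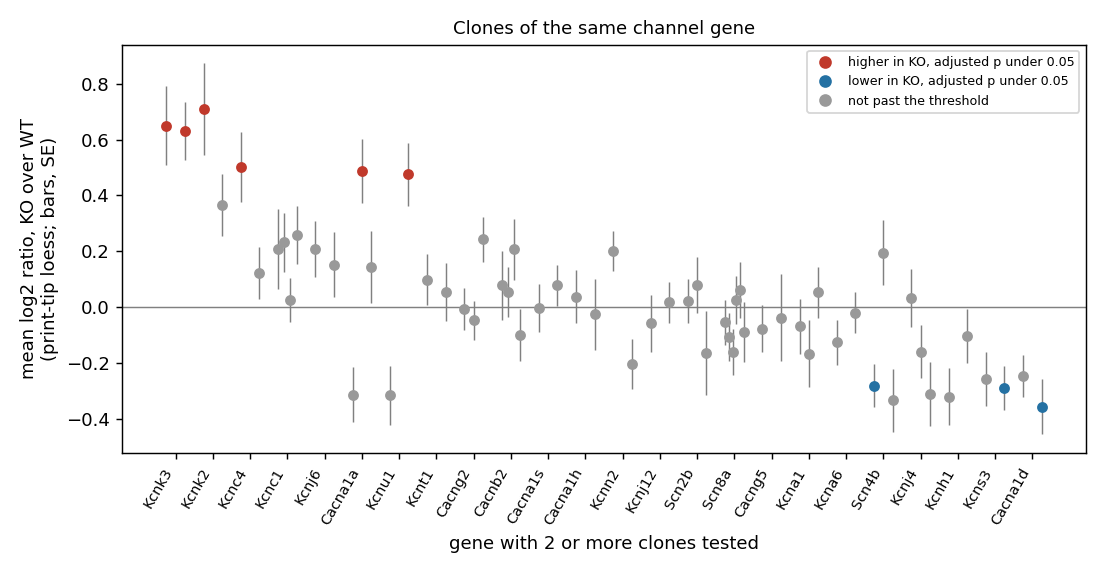
Mean log2 ratio of KO over WT after print-tip loess, with SE bars, for each tested clone of the 24 channel genes with 2 or more tested clones, ordered by the gene's mean. Kcnk3, Kcnk2 and Kcnc4 on the left and Kcns3 and Cacna1d on the right have clones on one side of 0, while the clones of Cacna1a, Kcnu1 and Scn4b lie on both sides.

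Normalization changed which channels were called. With global loess 13 channel clones were higher and 16 lower, beside 16.2% and 14.2% of all clones (30.4% in both directions together). Print blocks accounted for 46.8% of the variance of the mean ratio over all clones with global loess, against 0.0687% after print-tip loess. In the same direction with both normalizations, 6 channel clones passed (5.71% of those tested), beside 6.97% of all clones; 5 of them were higher and 1 lower, beside 4.76% and 2.21% of all clones. They were both Kcnk3 clones (0.65 and 0.62 with global loess), Kcnk12 (0.73), Kcnk4 (1.17), Kcnu1 clone 2 (0.58) and Cacna1d clone 2 (-0.75). Kcnk4 shares print block 48 with Kcnq1 and Cacna2d4. These also lay higher with global loess (0.26 and -0.11) than after print-tip loess (-0.31 and -0.27). The part of the print block in the larger Kcnk4 value was not tested. Two-pore clones thus made up 4 of the 6, among them Kcnk3 clone 2 and Kcnk12, whose titles in the scanner files are not a channel's. Kcnma1 (0.29), Kcnk2 clone 1 (0.22), Kcnc4 (0.08), Cacna1a clone 2 (0.04), Kcns3 (-0.19) and Scn4b clone 1 (-0.28) kept their sign with global loess and did not pass, and neither did Kcnip3 (0.38, adjusted p = 0.0507).

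With global loess alone, 23 channel clones passed. Those lower in KO, beside Cacna1b, the 3 Scn8a clones and Cacna1d clone 1 given above, were the 2 Kcnh1 clones (-0.54 and -0.42), Kcnv2 (-0.45), Kcna6 (-0.38), Kcnj4 (-0.43), Kcnu1 clone 1 (-0.40), Cacnb4 (-0.50), Cacng2 clone 2 (-0.47), Cacng5 (-0.46) and Scn2b (-0.44). Those higher were Kcnab1 (0.78), Cacna2d1 (0.67), Kcnk2 clone 2 (0.47), Kcnj6 (0.47), Kcnt1 (0.42), Cacng2 clone 4 (0.41), Kcnd3os (0.38) and Kcnn2 clone 1 (0.35). All but Kcnd3os had the same sign after print-tip loess, at smaller sizes.

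**Figure D5:**
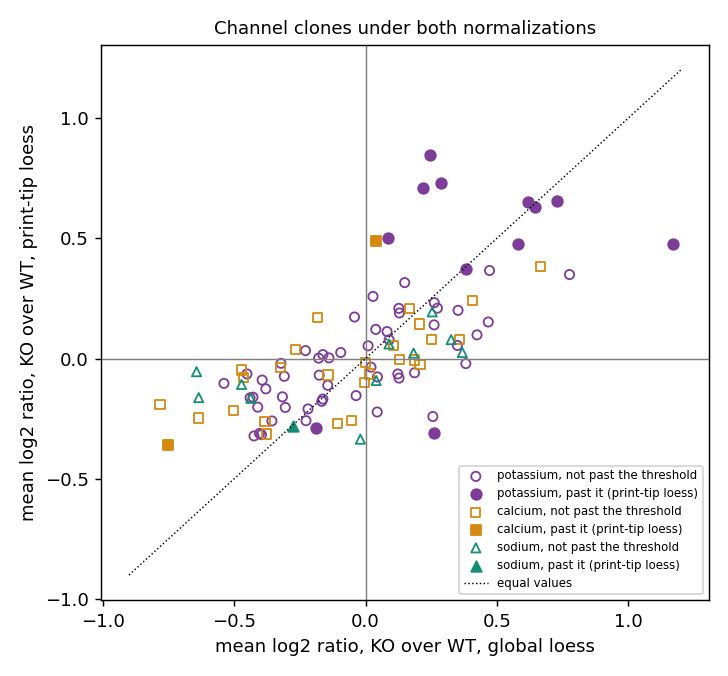
Mean log2 ratio of KO over WT of each tested channel clone with global loess (horizontal) and after print-tip loess (vertical), by ion type; filled symbols passed the threshold after print-tip loess and the dotted line marks equal values. Both Kcnk3 clones, Kcnk12 and Kcnip3 lie near the line, Kcnj14, Kcnk2, Kcnma1, Kcnc4 and Cacna1a above it, and Kcnq1 is positive with global loess and negative after print-tip loess.

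The calls also rested on having all arrays. Over the 11 clones called higher, the median log2 ratio on arrays 1 to 6 was 0.31, 1.03, 0.44, 0.89, 0.22 and 0.74. All 6 medians were above 0, and the 3 arrays with the widest ratios gave the 3 highest. After print-tip loess, none of the 15 calls held without array 2, without array 3 or without array 6, and over all clones 1 call remained in each of these fits. Without array 4, and without arrays 2 and 4 together, Kcnj14 was the only channel clone called, at 0.78 (adjusted p = 0.0451) and 0.70 (adjusted p = 0.0228). The ratios moved less than the calls: with any 1 array left out, Kcnk3 clone 3 lay between 0.56 and 0.71, Kcnk12 between 0.56 and 0.76, Kcnk2 clone 1 between 0.58 and 0.83, Kcnma1 between 0.61 and 0.81, and Cacna1d clone 2 between -0.43 and -0.28. With global loess, both Kcnk3 clones, Kcnk12, Kcnk4 and both Cacna1d clones passed with each array left out in turn. So did Kcnab1, Cacna2d1, Cacnb4 and the Scn8a clones at -0.64 and -0.63, none of them called after print-tip loess. Leaving out an array does not remove the print block differences that global loess leaves in the ratios. With global loess and without arrays 2 and 4, only Kcnk3 clone 3, Kcnk4 and the Scn8a clone at -0.64 passed. Kcnk3 clone 2 (0.57, adjusted p = 0.0532), Kcnk12 (0.51, adjusted p = 0.0662) and Cacna1d clone 1 (-0.51, adjusted p = 0.0835) did not. Cacna1d clone 2 was not tested there.

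Some markers of both endocrine tissues of the gland were also called. Of 11 tested clones of adrenal cortex markers, 4 were higher in KO glands, none lower and 7 did not pass, with a median log2 ratio of 0.62. That is 36.4% called, beside 11.2% of all clones. The called clones represent Hsd3b1 (2 clones), Nr5a1 and Scarb1. Of 12 chromaffin cell marker clones, 6 were higher (Chga, Chgb, Scg2 and Scg3), 1 lower (Slc18a1, -0.46) and 5 did not pass (58.3% called, median 0.63). Global loess, where 30.4% of all clones were called, gave 6 cortex clones higher and none lower (median 0.45). It gave 9 chromaffin clones higher and 1 lower (median 0.86). The called Scarb1 clone did not pass there (0.28, adjusted p = 0.292). Star (1.53), Cyp11a1 (1.16) and Th (1.10) were among those that passed only there. The summed normalised signal over the arrays was 27448 to 51570 in KO and 10610 to 51572 in WT for the cortex clones measured on all arrays, and 18251 to 42409 in KO and 8234 to 36074 in WT for the chromaffin clones. Neuron and neurite markers gave 4 higher of 21 clones (19.0%, median 0.07) and smooth muscle markers 1 of 6 (16.7%, median 0.06). Markers of skeletal and heart muscle, Schwann and sustentacular cells, endothelium and brain gave none of 5, 10, 4 and 7. The cortex and chromaffin medians were of the size of the ratios of the two-pore clones, and their part in the channel ratios was not tested.

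Genes of other membrane transport lists were set beside the 11.2% of all clones called. Other cation channels gave 1 higher (Orai3, 0.35, but -0.28 with global loess) and 3 lower among 33 clones (12.1%, median -0.04). The lower ones were Trpm7, a channel fused to a kinase, at -0.84 ± 0.10 (adjusted p = 0.0222), and both clones of Stim2, a calcium sensor of the endoplasmic reticulum (-0.38 and -0.36, the second at 0.17 with global loess). All 4 tested Trpm7 clones had negative ratios. Chloride channels gave 2 higher of 26 (7.69%), a clone each of Clcn2 (0.66) and Clic4 (0.83). The second Clcn2 clone was at 0.21 and the other Clic4 clones at -0.19 and -0.04, and neither called clone passed with global loess. Ion pumps and exchangers gave none higher and 1 lower of 48 (2.08%), a clone of the calcium pump gene Atp2a2 (-0.43 ± 0.09, adjusted p = 0.0290). The 11 tested Atp2a2 clones ran between -0.43 and 0.46, with 7 above 0, so that this call does not give the gene a direction.

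Proteins that bind, anchor or regulate channels gave 7 higher and 2 lower among 40 clones (22.5%, median 0.09), beside 11.2% of all clones. With global loess they gave 6 higher and 4 lower, where 30.4% of all clones were called, so that the larger share was not seen there. Abcc8 encodes the sulfonylurea receptor that pairs with inward rectifiers, and was at 0.98 ± 0.24 (n = 5, adjusted p = 0.0397) in one clone and at 0.05 in the other. Ank2, an ankyrin that anchors channels and exchangers, was at 0.65 ± 0.15 (adjusted p = 0.0323) in one clone and at -0.23 in the other. Nedd4l, a ubiquitin ligase of sodium channels, was at 0.55 in its 1 clone. The kinase gene Sgk1, which restrains it, was at 0.50 in the called clone and at 0.14 and -0.23 in the others. A clone each of the scaffold genes Dlg2 (0.62) and Dlg4 (0.34) was higher and a clone of their relative Dlg3 lower (-0.33), and each of the 3 genes had further clones on the other side of 0. Fgf13 (0.41) and Fgf12 (-0.50), which encode proteins that bind sodium channel tails, were called in opposite directions, and Fgf12 was positive with global loess (0.17). The called clones of Dlg2 (0.12, adjusted p = 0.620) and Sgk1 (0.36, adjusted p = 0.0945) did not pass with global loess.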

How the data were processed

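A GenePix 4000A scanner read the slides and the authors subtracted background, per the labels' design text; the deposited scanner tables give red and green intensity, local background and a quality score of each ratio (a fraction between 0 and 1). The deposited value table holds log2 ratios of red over green, uncentred. Its values were reproduced from the intensities after subtraction of the local background. Whether background had already been removed from the deposited intensities was not tested. Log2 ratios of green (KO) over red (WT) were computed from the deposited intensities as they stand, without subtracting the local background. A further setting subtracted it by normexp. Spots with a quality score above 0.3 were used, without 768 empty spots and a control plate of 384. The ratios were normalised by print-tip loess and averaged per clone. Where at least 4 of 6 arrays gave a value, the mean was tested against 0 by limma 3.58.1 under R 4.3.3 (lmFit, then eBayes). Print-tip loess was chosen because print blocks held much of the variance after global loess. The script was tested on simulated data. Normalised signals are intensities after print-tip loess.

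Genes were named through the platform's annotation, whose rows were matched to spots by value (99.8% of 35873 rows within 0.002), and updated through RefSeq (GRCm38.p6, 11624 of 11845 gene IDs); such annotation can be old. Clones of a gene are numbered arbitrarily. Named were all called clones, the 2 smallest p of each class, clones called by global loess alone, channels known in the adrenal, genes with several clones, and called members of the other lists. Members and lists were chosen with earlier results of these data known. Python 3.11.15 made the tables. The number of arrays limits the precision.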

Additional observations from a re-analysis of the deposited data

Results flagged for a closer look

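Among the 46 channel clones checked, 2 had 1 array far from the others; chance alone flags about 1 in 20 such groups. Cacna1h clone 2, which represents a T-type calcium channel, was at -0.74 on array 6, against 0.02 to 0.40 on the other 5 arrays. Cacnb2 clone 1, which represents a calcium channel beta subunit, was at -0.32 on array 4, against 0.18 to 0.26 on the other 3 arrays measured. Neither clone passed the threshold.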

How the results depend on the processing

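No paired analysis was possible because the test already takes the KO over WT ratio within each array, which leaves no further block to fit. Against 11 higher and 4 lower channel clones in limma's test after print-tip loess, median centring gave 17 and 14, normexp 6 and 0, spots above local background in both dyes 7 and 2, the value table none, no quality filter 0 and 0 (unadjusted p under 0.05: 40 higher and 4 lower for the value table, 19 and 16 without the filter), and leaving out arrays 2 and 4 gave 1 and 0. Global loess gave 13 and 16. Leaving out 1 array gave 0 to 10 higher and 0 to 1 lower; at an unadjusted p under 0.05, 17 clones were higher without array 2, 3 or 6 and 13, 14 and 13 lower. Added after the data were seen, global loess without 1 array gave 6 to 13 higher and 5 to 15 lower, and without arrays 2 and 4 it gave 2 and 1. Potassium calls (12) became 11 higher and 6 lower with global loess. They became 6 with normexp, 0 with the authors' values or no filter, 1 without arrays 2 and 4, and 0 to 10 without 1 array. Calcium calls (2) became 8 with global loess, 9 with median centring, 0 with normexp, the value table, no filter or without arrays 2 and 4, 1 with bright spots, and 0 to 2 without 1 array. Sodium calls (1) became 4 with global loess, 5 with median centring, and 0 with normexp, the value table, no filter, bright spots, without arrays 2 and 4 and without any 1 array. The potassium, calcium and sodium medians were 0.10, -0.13 and 0.021 with median centring and 1.32, 1.31 and 0.55 with the uncentred value table, where the median of all clones was 0.99. Signs turned under median centring for Cacna1a clone 2 (-0.14), Kcnc4 clone 2 (-0.090), Kcnj14 (-0.0026) and Kcnq1 (0.35), and under global loess for Kcnq1 (0.26). The cause of these turns was not tested. Signs against 0 in the uncentred value table carry the offset of 0.99, as do its 40 higher and 4 lower clones. Cacna1d clone 2 (1.90), Kcnq1 (1.36) and Scn4b clone 1 (1.51) lay above that median of all clones there. Kcns3 clone 2 (0.10) was above 0 but below that median. Of the 15 called clones, 13 were measured on all arrays and all 13 stayed called in a fit limited to such clones.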
